A study of Mus musculus with 6 samples.

Results

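The 9 genes described here make, clear, carry or read retinoic acid in epidermal sheets that lack Raptor and in those that have it. They were taken as a list of names: Rdh10, Dhrs9, Aldh1a1, Aldh1a2, Aldh1a3, Aldh1a7, Cyp26b1, Crabp2 and Rarg. The list was chosen with earlier results of these data known, so counts of calls among these genes are a description. Each was read from the single probe set whose only gene it is, so 9 of the 30063 named genes on the array were followed. All 9 had exactly 1 such probe set, and no choice among probe sets was needed.

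Epidermis was taken from mouse embryos at E18.5, shortly before birth, and its RNA was hybridised to 6 arrays. A group of 3 came from embryos with a conditional knockout of Rptor (Rptor cKO, arrays 1 to 3) and a group of 3 from wild-type littermates (arrays 4 to 6), sorted by appearance and by genotyping. Rptor encodes Raptor, which presents substrates to the growth kinase complex mTORC1. The sheets were lifted off the dermis after 10 minutes in 3.8% ammonium thiocyanate. The strain, the Cre driver, the deleted exons, which embryos shared a litter and any pooling of embryos are unstated in the labels. The design text calls the 3 samples of a group biological replicates. Values are log2 signals, and every difference is Rptor cKO minus wild type.

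Vitamin A reaches the skin as retinol or its esters. Retinol dehydrogenases such as RDH10 and DHRS9 oxidise it to retinal, and retinal dehydrogenases of the ALDH1A family turn retinal into retinoic acid. CRABP2 carries the acid to the nucleus, where RARG, the main retinoic acid receptor of the epidermis, binds DNA with an RXR partner, and CYP26 enzymes degrade it. In skin the pathway is known for restraining cornification and for shaping the barrier, and both its lack and its excess disturb keratinocyte differentiation.

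Facts of the whole series touch these genes in a few places. Rptor itself averaged 6.69 ± 0.14 in the cKO group against 7.15 ± 0.27 (SD, n = 3), lower on all 3 Rptor cKO arrays without passing the test (limma adjusted p = 0.0988). Whether its probe set lies in the deleted part is not known. Krt5, the keratin of basal keratinocytes and so a check of the labelled tissue, read 12.22 ± 0.25 and 12.18 ± 0.11 (SD, n = 3). By Xist and Y-linked genes, Rptor cKO arrays 1 and 3 came from females and the other 4 arrays from males. Signals of the 5222 negative control probe sets centred on 3.81 to 4.11, depending on the array, and this median serves below as a guide to what is dim. Array medians ran from 4.08 to 4.22. With 3 arrays a group, the number of arrays limits the precision, and in bulk RNA fewer cells of a type and less RNA per cell cannot be told apart.

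The promoters are shown first because the members that fell hold a close pair of neighbours. Aldh1a1 (chromosome 19, 20492583 to 20643463, plus strand) and Aldh1a7 (chromosome 19, 20692953 to 20727556, minus strand) lie 49489 bases apart. Below are the 100 bases before the downstream start of Aldh1a1 (chr19:20601868-20601967) and before the start of Aldh1a7 (chr19:20727557-20727656), from RefSeq on GRCm38.p6, the assembly behind mm10. Capitals mark a match to the half-site that retinoic acid receptors and other nuclear receptors bind, read on the opposite strand.
Aldh1a1, downstream start: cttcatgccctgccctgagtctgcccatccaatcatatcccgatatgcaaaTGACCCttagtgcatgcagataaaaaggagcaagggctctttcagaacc
Aldh1a7: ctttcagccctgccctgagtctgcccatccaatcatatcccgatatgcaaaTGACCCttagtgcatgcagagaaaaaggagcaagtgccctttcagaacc
Compared base by base without gaps, 94 of these 100 bases were the same and 6 differed. The half-site lay 49 to 44 bases before the start in both. Before the upstream start of Aldh1a1, the 250 bases held no half-site, and 30 of the nearest 100 bases were the same as in Aldh1a7. For the downstream start of Aldh1a1 and the start of Aldh1a7, bases 250 to 101 before the start were compared in the same way. There 35 of 150 bases were the same, and no alignment with gaps was made.

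RefSeq windows were found for 6 of the 9 genes, 8 windows in all: Aldh1a1 and Rarg with a pair of starts each, and Aldh1a2, Aldh1a7, Dhrs9 and Cyp26b1. Aldh1a3, Rdh10 and Crabp2 had no window in the table. The half-site was searched as AGGTCA or GGGTCA, and equally as AGTTCA or as GGTTCA, on both strands of the 250 bases before each start. It was present in 4 of the 8 windows and in 38.6% of 32851 promoters. A pair of half-sites in the same direction is called DR1, DR2 or DR5 after the 1, 2 or 5 bases between them, and each such pair contains matches of the single half-site. None of the 8 windows held one, where 0.164%, 0.174% and 0.0883% of all promoters did, so the count of 0 is read as no result about the members.

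A DR5 was found in 2 of the 55 measured genes of the wider pathway lists that had a window, Rarb and Cyp26a1. Both are textbook direct targets of retinoic acid, and their elements are shown because their RNA is used below beside that of the members. Each stretch holds the element with up to 20 bases on either side, and capitals mark the half-sites.
Rarb, chr14:16575493-16575549, minus strand: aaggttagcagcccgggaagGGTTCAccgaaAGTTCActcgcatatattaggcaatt
Cyp26a1, chr19:37697756-37697807, plus strand, element on the opposite strand: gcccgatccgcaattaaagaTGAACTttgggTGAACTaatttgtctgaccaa
The element lay 53 to 37 bases before a start of Rarb and 32 to 16 bases before that of Cyp26a1. This start of Rarb lies inside the span of the gene (chromosome 14, 16430839 to 17082331), downstream of its outermost start. Whether the Rarb probe set reads RNA made from this start is not known. A match of letters is a description and not evidence of binding in this tissue.

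The test across all named genes was limma with Benjamini-Hochberg adjustment over 30063 genes and a threshold of 0.05. In it 3 of the 9 genes were lower in Rptor cKO, Aldh1a7, Crabp2 and Aldh1a1, and 0 were higher. The background was 5.96% of all genes lower and 3.64% higher, 9.60% in either direction. Of the called genes 62.1% were lower, and 75.7% were with each array's median subtracted, a setting that left the same count of 3 lower members. At an unadjusted p under 0.05, limma counted 4 of the 9 as lower and 1 as higher, where over all genes it counted 11.4% and 11.9%, so the 1 higher member is no more than the background. An ordinary linear model without moderation counted 3 and 1, against 2660 lower and 3123 higher of the 30063 genes, and 0 members passed in it after adjustment. The groups did not overlap for 5 of the 9 (background 29.0%), 4 with Rptor cKO below (background 12.5%) and 1 above (background 16.5%). The median difference was -0.14, against 0.05 over all genes.

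**Figure D1:**
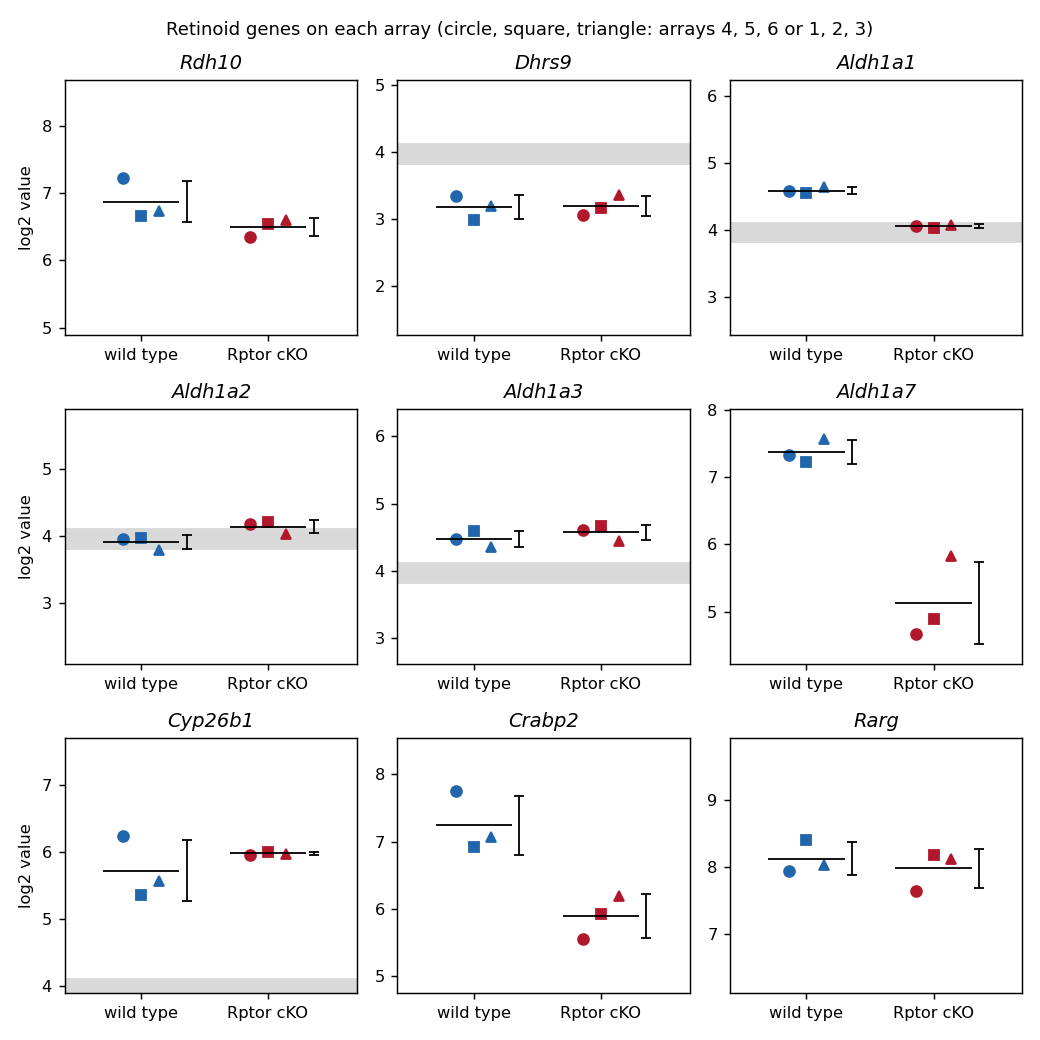
Log2 value of each of the 9 retinoid genes on every array (points), with the group mean (line) and SD (bar), for wild type and Rptor cKO; all panels span the same height in log2 units. The grey band is the range of the negative control medians, 3.81 to 4.11, and Aldh1a7 and Crabp2 show the widest gaps between groups.

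Of the retinol dehydrogenases, RDH10 is the one that embryos need for making retinoic acid. Rdh10 (chromosome 1, 16105882 to 16132550) read 6.35, 6.54 and 6.60 on Rptor cKO arrays 1 to 3 and 7.23, 6.66 and 6.74 on wild-type arrays 4 to 6. The groups did not overlap, Rptor cKO being lower, but the gap between the nearest pair was 0.063, and wild-type array 4 stood above the other wild-type arrays. The difference was -0.38 (SE 0.16, 95% interval -0.74 to -0.022) and did not pass (limma adjusted p = 0.187).

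DHRS9 is a short-chain dehydrogenase that oxidises retinol and some steroids. Dhrs9 (chromosome 2, 69380462 to 69403086) gave 3.06, 3.16 and 3.36 on the Rptor cKO arrays and 3.35, 2.99 and 3.19 on the wild-type arrays. On none of the 6 arrays did it reach the median of the negative controls, so it was not measured above background here, and no fold is given. The difference of 0.02 (95% interval -0.27 to 0.30, limma adjusted p = 0.951) turned below 0 in 5 of 15 alternative settings.

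Of the 4 ALDH1A genes, Aldh1a7 and Aldh1a1 passed the test and Aldh1a2 and Aldh1a3 did not, and differences between them were not tested. Aldh1a7 is a rodent relative of Aldh1a1 whose part in retinal oxidation is less clear. It read 4.67, 4.89 and 5.82 on Rptor cKO arrays 1 to 3 and 7.33, 7.22 and 7.57 on wild-type arrays 4 to 6. The groups were 1.40 log2 units apart at their nearest arrays, and Rptor cKO array 3 was the closest to wild type. Aldh1a7 fell 4.75-fold (-2.25, SE 0.27, 95% interval -2.86 to -1.63, limma adjusted p = 0.00317), lower on 3 of 3 arrays. A larger change in either direction was found for 0.412% of all genes.

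Aldh1a1 makes a retinal dehydrogenase that is widespread in epithelia. It gave 4.06, 4.03 and 4.08 on the Rptor cKO arrays and 4.58, 4.55 and 4.64 on the wild-type arrays. The spread within each group was small, 4.06 ± 0.024 and 4.59 ± 0.048 (SD, n = 3), and the groups lay 0.46 apart. Aldh1a1 fell by 0.53 (SE 0.084, limma adjusted p = 0.00827), lower on 3 of 3 arrays. The signal was dim, under the negative control median on Rptor cKO array 1 and near it on arrays 2 and 3. The fold was 1.44 as measured and 1.43 with values under that median set to it, and neither is exact so near background. When embryo sex was added to the model, which sets the male Rptor cKO array 2 against the wild type, the difference was -0.55 (adjusted p = 0.0833).

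Aldh1a1 and Aldh1a7 encode closely similar transcripts. The probe sequences were not used here, so how far either probe set also binds the RNA of the other is not known, and the smaller fall of Aldh1a1 cannot be separated from that of Aldh1a7. Whether the falls of the 2 genes differ in size was not tested.

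Aldh1a2 and Aldh1a3 encode the retinal dehydrogenases of embryonic mesoderm and of sensory and other epithelia. Aldh1a2 (chromosome 9, 71215789 to 71296243) gave 4.19, 4.21 and 4.04 on the Rptor cKO arrays and 3.96, 3.98 and 3.79 on the wild-type arrays. It was the only member whose Rptor cKO arrays all lay above wild type, by a gap of 0.058, and it did not pass (0.24, SE 0.099, 95% interval 0.011 to 0.46, limma adjusted p = 0.192). These values straddle the negative control medians. Aldh1a3 (chromosome 7, 66390892 to 66427477) gave 4.60, 4.67 and 4.45 on the Rptor cKO arrays and 4.46, 4.59 and 4.36 on the wild-type arrays. Its groups overlapped, with a difference of 0.10 (95% interval -0.13 to 0.34, limma adjusted p = 0.608).

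CYP26B1 is the retinoic acid hydroxylase that keeps the acid low in developing skin and hair follicles. Cyp26b1 (chromosome 6, 84571414 to 84593908) gave 5.96, 5.99 and 5.97 on the Rptor cKO arrays and 6.24, 5.36 and 5.56 on the wild-type arrays. The Rptor cKO arrays lay within 0.017 (SD) of one another, inside a wild-type spread of 0.46. The difference was 0.26 (95% interval -0.21 to 0.72, limma adjusted p = 0.507). Single wild-type arrays set its size. Without array 4, the highest of the 6, Cyp26b1 was higher in Rptor cKO by 0.51 (limma adjusted p = 0.0273), and without array 5, the lowest, the difference was 0.077.

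CRABP2 binds retinoic acid in the cytosol and hands it to the receptor, and it is a differentiation-linked protein of the epidermis. Crabp2 (chromosome 3, 87948693 to 87953372) read 5.55, 5.93 and 6.20 on Rptor cKO arrays 1 to 3 and 7.75, 6.92 and 7.07 on wild-type arrays 4 to 6. The groups lay 0.72 apart at their nearest arrays. Crabp2 fell 2.55-fold (-1.35, SE 0.23, 95% interval -1.89 to -0.82, limma adjusted p = 0.0109), lower on 3 of 3 arrays. Without Rptor cKO array 2 the difference was -1.37 (adjusted p = 0.0528), and when embryo sex was added to the model -1.31 (adjusted p = 0.122).

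Rarg (chromosome 15, 102234938 to 102257522), the receptor that reads the signal in keratinocytes, stood at 7.65, 8.18 and 8.11 in the Rptor cKO sheets and 7.94, 8.40 and 8.03 in those of the wild type. The groups overlapped, and the difference was -0.14 (SE 0.17, 95% interval -0.54 to 0.25, limma adjusted p = 0.681). A fall or rise of up to these bounds is not excluded by 3 arrays a group. Its direction turned without Rptor cKO array 1, the lowest of the 6, where it was 0.023.

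**Figure D2:**
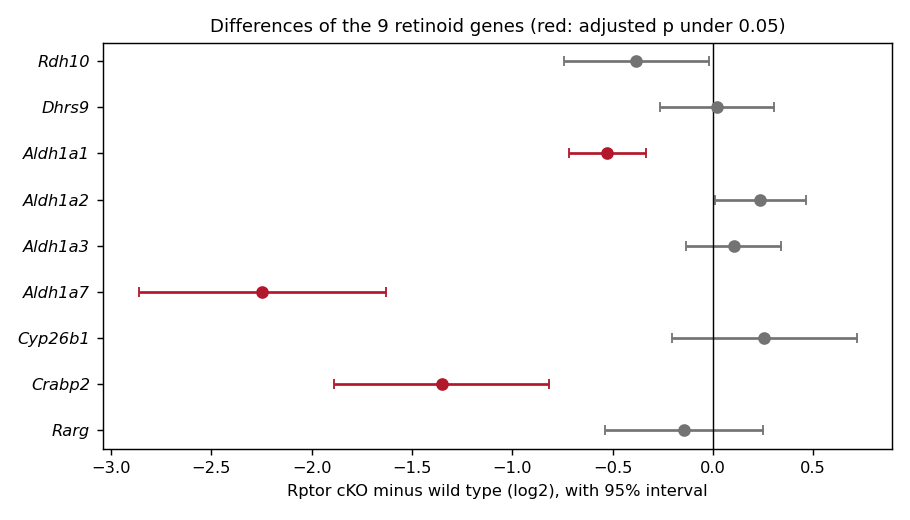
Difference in log2 signal, Rptor cKO minus wild type, for the 9 retinoid genes (points) with 95% intervals from limma (bars); red marks adjusted p under 0.05. Aldh1a7 (-2.25), Crabp2 (-1.35) and Aldh1a1 (-0.53) lie wholly below 0, and the intervals of Aldh1a3, Dhrs9, Cyp26b1 and Rarg cross it. Those of Rdh10 (-0.74 to -0.022) and Aldh1a2 (0.011 to 0.46) lie just below and just above 0, and neither gene passed after adjustment.

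Markers of the upper epidermal layers fell as well. Of 8 spinous markers, among them Krt1 and Krt10, 8 fell, and of 10 granular markers, among them Flg and Lor, 9 fell. The mean log2 value of the granular list was 7.96, 8.07 and 9.30 on Rptor cKO arrays 1 to 3 and 10.31 to 11.20 on the wild-type arrays. The spinous list gave 8.83, 8.58 and 9.91 against 10.81 to 11.20. Rptor cKO array 3 was thus the nearest to wild type in both lists, as it was for Aldh1a7, Crabp2 and Rdh10, the last not past the test. This was not particular to the upper layers. Array 3 was also nearest in the dermal fibroblast list, which rose (0.66, 0.77 and 0.30 from its wild-type mean), though not in the basal list (-0.05, 0.11 and 0.16). For Crabp2 (-1.69, -1.31 and -1.05) and Rdh10, array 2 lay nearer to array 3 than to array 1, unlike in the spinous and granular lists. Aldh1a1 was nearly level, at -0.52, -0.55 and -0.51 from its wild-type mean on Rptor cKO arrays 1 to 3. Its values there, 4.03 to 4.08, lay near the negative control medians of those arrays (3.85 to 4.11), so no contrast with the other genes is drawn from this. Basal markers stood at 8.68 to 8.88 in Rptor cKO and 8.55 to 8.89 in wild type, with 2 of 9 higher (Itgb1, Itgb4) and 1 lower (Krt15). The part of the layer markers in the falls of the retinoid genes was not tested.

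Markers of some other cells moved too, where over all genes 5.96% were lower and 3.64% higher. Of 14 dermal fibroblast markers 6 rose and 0 fell (0 also at an unadjusted p under 0.05 in limma and in the ordinary linear model), and their mean was 5.81 to 6.27 in Rptor cKO and 5.37 to 5.62 in wild type. Dcn read 8.78 ± 0.16 against 7.85 ± 0.074 (SD, n = 3), and each of the 14 exceeded the negative control median on at least 1 array. This stands beside Aldh1a2 and Cyp26b1, which fibroblasts can express, and its part in their values was not tested. Of 12 Langerhans cell and macrophage markers 4 fell, with a mean of 4.84 to 5.20 against 5.28 to 5.43. Of 10 hair follicle markers 3 rose (Edar, Krt17 and Lgr6) and 0 fell, and their part in the value of Cyp26b1 was not tested either. Periderm markers had 1 higher and 1 lower. The endothelium, melanocyte, T cell and Merkel cell lists held 1 called gene each, and the muscle, adipocyte, nerve and erythroid lists 0.

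**Figure D3:**
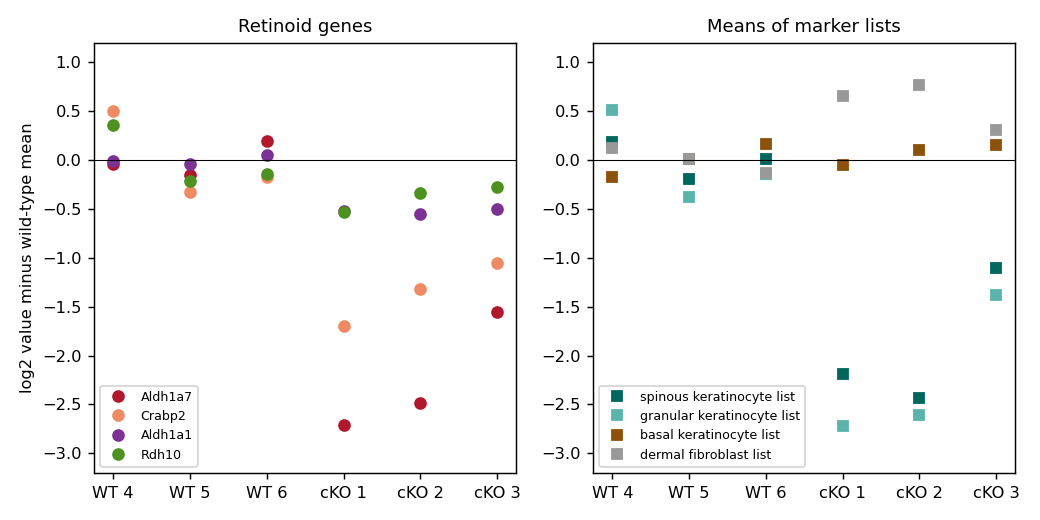
Log2 value on each array minus the wild-type mean, for Aldh1a7, Crabp2, Aldh1a1 and Rdh10 (left) and for the means of 4 marker lists (right). On Rptor cKO array 3 the granular and spinous lists stood at -1.38 and -1.10, against -2.72 to -2.19 on arrays 1 and 2, and Aldh1a7 stood at -1.55 against -2.71 and -2.48. The dermal fibroblast list, which rose, was also nearest to wild type on array 3 (0.30, against 0.66 and 0.77), and the basal list was not (0.16, against -0.05 and 0.11).

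For each member the gene with the most similar profile over the 6 arrays was sought among 18021 named genes, as a description. Aldh1a7 was nearest to Rai14, a gene named for its induction by retinoic acid (Pearson r = 0.999 over 6 arrays), which fell by 0.99. Crabp2 was nearest to Vti1b (r = 0.999), a vesicle fusion protein that fell by 0.77, and Aldh1a1 to Pgm2 (r = 0.997), a sugar phosphate enzyme that fell by 0.66. For the other 6 members the nearest were Cdkn2c for Rdh10, Tmem80 for Dhrs9, Pus1 for Aldh1a2, Tnr for Aldh1a3, Abhd16b for Cyp26b1 and Med16 for Rarg, with r from 0.988 to 0.998. The arrays fall into 2 groups and the best of many genes was taken, so a high r is no sign of a link.

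The rest of the pathway was read from lists by role, 73 measured genes besides the 9. Those lists too were chosen with earlier results of these data known, and their counts are likewise a description. Of the 73 genes 19 were lower, 2 higher and 52 did not pass, with a median of -0.034. Over all genes 5.96% were lower and 3.64% higher, so the 2 higher genes are no more than the background. Without Rptor cKO array 2 the count fell to 9 lower and 0 higher, and without wild-type array 6 to 12 and 1.

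The enzymes that interconvert retinol and retinal held most of the lower genes. Of 21 measured, 10 were lower and 0 higher (11 and 1 at an unadjusted p under 0.05 in limma, 10 and 0 in the ordinary linear model), with a median of -0.38 against 0.05 over all genes. Over all genes that unadjusted p gave 11.4% lower and 11.9% higher in limma, which is the background for each list that follows. Adh1, an alcohol dehydrogenase that also oxidises retinol, averaged 5.82 ± 0.57 in Rptor cKO against 8.86 ± 0.17 (SD, n = 3), and its highest Rptor cKO value, 6.40, lay far under its lowest wild-type value, 8.67. It fell 8.24-fold (-3.04, SE 0.25, limma adjusted p = 0.000997), the most of the 73 genes. Sdr16c5, an epidermal retinol dehydrogenase, read 6.27 ± 0.83 against 8.85 ± 0.36 (SD, n = 3) and fell by 2.58 (SE 0.37). Rdh12, a reductase of retinal, fell by 2.00 (SE 0.19). Dhrs7, a short-chain dehydrogenase, fell by 1.94 (SE 0.22). The other 6, outside the naming rule, were Sdr16c6, Dhrs3, Rdh16, Rdh11, Rdh7 and Adh7, with differences from -2.55 to -0.39. The number lower was 4 when Rptor cKO array 2 was left out, 5 without wild-type array 6, 6 when embryo sex was in the model, and 7 to 8 with any other array left out.

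Uptake and storage genes, which bring retinol into the cell and hold it as esters, came next. Of 17 measured, 3 were lower and 0 higher (4 and 0 at an unadjusted p under 0.05 in limma, 3 and 1 in the ordinary linear model), with a median of 0.021. Rbp2, a cellular retinol-binding protein, gave 6.95, 6.81 and 7.96 on the Rptor cKO arrays and 10.15, 9.56 and 9.66 on the wild-type arrays, a 5.84-fold fall (-2.55, SE 0.29, limma adjusted p = 0.00266). Lipe, a lipase that can hydrolyse retinyl esters, fell by 1.25 (SE 0.30), and Lrp1, an endocytic receptor for lipid particles, fell by 0.68 (SE 0.16). Lipe and Lrp1 lost their calls in 7 and 8 of 16 alternative settings, and Rbp2 in 1. The list held 1 lower gene where Rptor cKO array 1, Rptor cKO array 2 or wild-type array 5 was left out, and 2 without Rptor cKO array 3 or wild-type array 6.

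Among 6 genes of retinoic acid binding and clearance, 2 were lower and 0 higher (2 and 1 at an unadjusted p under 0.05 in both limma and the ordinary linear model). Fabp5, a carrier that can take retinoic acid to another nuclear receptor, read 6.69 ± 0.44 against 8.42 ± 0.15 (SD, n = 3) and fell 3.32-fold (-1.73, SE 0.20, limma adjusted p = 0.00294). Cyp2s1, a cytochrome of epithelia that can metabolise retinoic acid, fell by 1.29 (SE 0.16). Both calls were kept with any 1 array left out. Fabp5 and Crabp2, the carriers of retinoic acid to different receptors, were thus both lower.

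Of 13 receptors, partners and coregulators 2 were lower and 0 higher (3 and 1 at an unadjusted p under 0.05 in limma, 3 and 0 in the ordinary linear model). Both were coactivators: Ncoa2 fell by 0.84 (SE 0.15) and Ncoa1 by 0.65 (SE 0.13), and neither passed without Rptor cKO array 2 or when embryo sex was in the model. Ncoa1 also lost its call without wild-type array 6. No receptor passed. Rara differed by 0.23 (95% interval -0.048 to 0.51), Rxra, the main RXR of epidermis, by -0.086 (95% interval -0.33 to 0.16), and Rarb by -0.11 (95% interval -0.33 to 0.11), values named outside the rule because Rarg stands beside them.

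Among genes that retinoic acid is known to induce, calls went both ways. Of 21 measured, 3 were lower and 2 higher, with a median of 0.11. The counts were the same at an unadjusted p under 0.05 in limma and in the ordinary linear model. At that p limma gave 11.4% lower and 11.9% higher over all genes, so these counts stand near the background. Rarres1, named as a retinoic acid receptor responder, read 5.38 ± 0.61 against 7.95 ± 0.28 (SD, n = 3) and fell by 2.57 (SE 0.28, limma adjusted p = 0.00225). Rai14 fell by 0.99 (SE 0.15), and Dhrs3, which returns retinal to retinol, by 0.86 (SE 0.19). Hbegf, an EGF receptor ligand that retinoids induce in keratinocytes, gave 7.08, 7.13 and 6.34 on the Rptor cKO arrays and 5.97, 5.55 and 5.50 on the wild-type arrays, a rise of 1.18 (SE 0.22, limma adjusted p = 0.0148). Egr1, an immediate early factor, rose by 1.04 (SE 0.19). Without Rptor cKO array 2 neither rise passed, and without Rptor cKO array 1 the list held 4 higher genes and 2 lower. Without wild-type array 6 it held 1 higher and 2 lower, and 1 of each when embryo sex was in the model, where Hbegf, Rai14 and Dhrs3 lost their calls.

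Neither of the 2 genes with a DR5 before a start passed the test. Cyp26a1 gave 4.41, 4.64 and 4.56 on Rptor cKO arrays 1 to 3 and 4.55, 4.72 and 4.38 on wild-type arrays 4 to 6, a difference of -0.010 (95% interval -0.27 to 0.25, limma adjusted p = 0.972). Rarb read 4.71, 4.70 and 4.79 against 4.97, 4.81 and 4.76 (limma adjusted p = 0.545). Both signals were dim, a little above the median of the negative controls on each of the 6 arrays and under their 95th percentile, which ran from 7.46 to 8.07. That percentile does not set these genes apart from the members. Rdh10, Cyp26b1, Dhrs9, Aldh1a1, Aldh1a2 and Aldh1a3 also lay under it on each of the 6 arrays. Aldh1a7 passed it on wild-type array 6 alone (7.57 against 7.46), and Crabp2 on wild-type array 4 alone (7.75 against 7.61). Rarg lay under it on Rptor cKO array 1 alone.

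**Figure D4:**
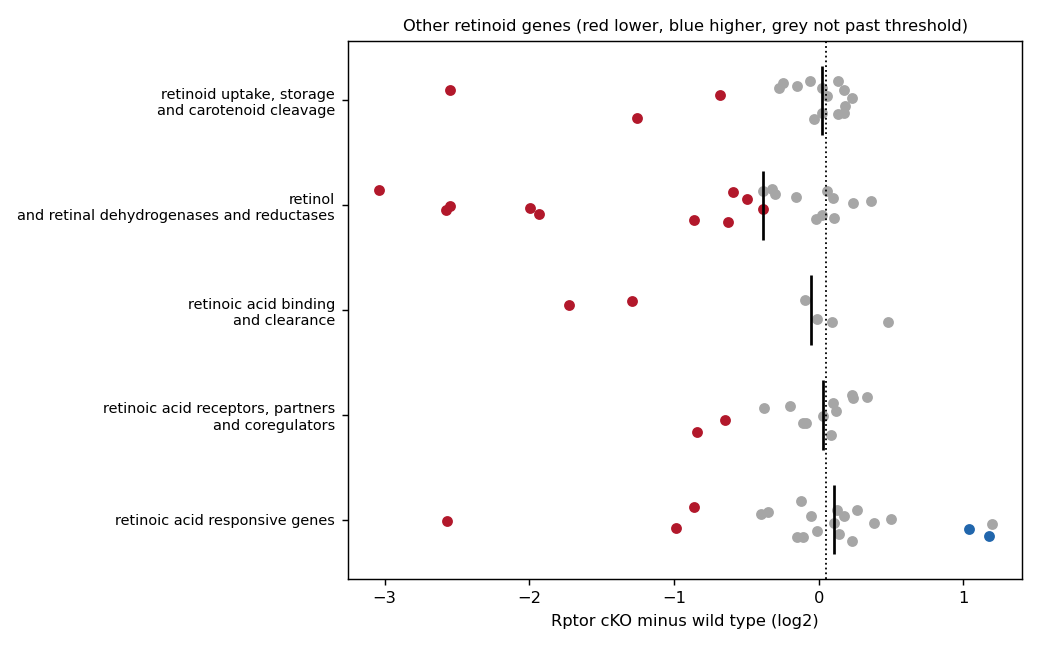
Difference in log2 signal, Rptor cKO minus wild type, for the 73 other genes of the retinoid pathway in 5 lists by role (points; Stra6, Lrat, Dhrs3, Cyp26a1 and Rarb stand in 2 lists each); solid lines are list medians and the dotted line is the median of all genes, 0.05. The dehydrogenase list reaches lowest, to -3.04 for Adh1, with 10 of 21 genes marked red for lower.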

How the data were processed

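Total RNA from 6 epidermal sheets was labelled with biotin and hybridised to expression arrays. The deposited table holds log2 signals made by the authors with RMA (background correction, quantile normalisation and probe summary), and Partek and the build mm10 are also named, per the submitters' processing notes, with no version stated. RMA draws all arrays to 1 distribution, which can hide a shift shared by most genes.

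Of 72688 probe sets, 6732 were controls, 30604 named 1 gene, 2146 several and 33206 none in the platform annotation. Symbols were updated for 1135 through RefSeq's gene table, with 22818 matched by Entrez ID. The probe set with the highest mean over the 6 arrays stood for each of 30063 genes, 429 of which had several. Rptor cKO was compared with wild type in limma 3.58.1 (R 4.3.3; lmFit and eBayes, two-sided, Benjamini-Hochberg, threshold 0.05), a procedure tested on simulated data first. An exact permutation of 3 against 3 arrays cannot give a p under 0.1, so single genes were tested in limma alone. Tables and figures were made in Python 3.11.15. Alternatives changed the scaling, the probe set rule, a filter on dim genes, the variance model, array weights, embryo sex, the tested set and each array in turn.

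The members, the wider lists and the marker lists were chosen with earlier results of these data known. Named genes were all members, up to 4 genes a direction with the smallest p in each wider list, Rptor, and for each member the gene with the highest Pearson r, leaving out predicted genes, small RNAs and olfactory or vomeronasal receptors. Chromosome positions are RefSeq's on GRCm38.p6, and promoter sequences are read in the gene's direction. Some genes of the wider lists are not reported here.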

Additional observations from a re-analysis of the deposited data

How the results depend on the processing

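Of 16 alternatives, those that lowered counts of calls are given here. An ordinary linear model without moderation called 8 genes in all (against 2886), 0 of the 9 members (against 3) and 0 of the 73 wider genes (against 21), where at an unadjusted p under 0.05 it had 3 members lower and 1 higher, and 20 wider genes lower and 4 higher. With embryo sex the counts were 643, 1 and 11. Leaving out 1 array gave 900 to 2444 genes, 2 to 4 members and 9 to 19 wider genes, the lowest of each when Rptor cKO array 2 was dropped. Dropping Rptor cKO array 1 left 1854 genes in all, and dropping wild-type array 6 left 13 of the wider genes. Where an array was left out its group rested on 2 arrays. Aldh1a7 ranged from -2.60 to -2.02 over the alternatives and lost its call in the ordinary model alone (adjusted p = 0.118). Aldh1a1 ranged from -0.60 to -0.50 (adjusted p 0.00483 to 0.0833) and Crabp2 from -1.52 to -1.10 (adjusted p 0.00694 to 0.158). Dhrs9, below background, turned to -0.053 with array medians subtracted, -0.043 with quantile normalisation, -0.015 with embryo sex, and ranged from -0.075 to 0.10 with 1 array left out, below 0 without Rptor cKO array 3 (-0.063) and wild-type array 5 (-0.075). The filter on dim genes left it out. Rarg turned to 0.059 with embryo sex, and ranged from -0.24 to 0.023 with 1 array left out, above 0 without Rptor cKO array 1. The cause of these changes was not tested. No paired analysis was possible because the arrays are numbered 1 to 3 and 4 to 6, with no number shared between groups. Signal near background limits Dhrs9, Aldh1a1, Aldh1a2 and Aldh1a3.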

Other observations

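Probe sets that name more than 1 gene stood outside the comparisons. The one shared by the retinol dehydrogenases Rdh1 and Rdh9 read 5.03, 4.86 and 5.32 on Rptor cKO arrays 1 to 3 and 6.98, 6.18 and 6.37 on wild-type arrays 4 to 6, all 3 Rptor cKO arrays below wild type (5.07 ± 0.23 and 6.51 ± 0.42, SD, n = 3). The one shared by Ppard, a nuclear receptor that can be reached through FABP5, and 1810013A23Rik read 7.71 ± 0.12 and 8.08 ± 0.23 (SD, n = 3). Its groups did not overlap either, but the nearest arrays were close, 7.80 on Rptor cKO array 2 and 7.82 on wild-type array 6. Over all named genes, 12.5% had every Rptor cKO array below wild type. Which of the genes each signal came from is not known, and neither difference was tested.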
